A study of Mus musculus with 3 samples.

Results

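The circadian clock genes described here are 10 genes of the daily oscillator of mammalian cells, followed in 3T3-L1 adipocytes: Arntl, Clock, Per1, Per2, Per3, Cry1, Cry2, Bhlhe40, Dbp and Tef. They were chosen by name, and every non-control probe whose RefSeq accession belongs to one of them was kept, which gave 11 probes among the 26579 named probes of 20142 genes. Dbp had 2 probes and the other genes 1 each. 3T3-L1 is an established mouse preadipocyte line that fills with fat after hormonal induction of differentiation. The groups were day 2, day 8 and day 20 after induction, with 1 Agilent 1-colour array of total RNA for each. No treatment beside the induction is named in the labels. The study was designed to follow adipocyte hypertrophy, the growth of fat cells as they store lipid. With 1 array per day no difference could be tested, no p-value is given, and each comparison sets 1 culture's RNA against another's. The labels used here give neither the hour of harvest nor the time since the last change of medium, so the day of culture and the phase of a daily rhythm cannot be told apart in any difference below.

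In the clock's main loop, CLOCK and BMAL1 (the protein of Arntl) pair up on E-box DNA motifs and switch on the Per and Cry genes, whose proteins then return to the nucleus and repress that pair. BHLHE40, also called DEC1, competes as a repressor at E-boxes. In a second loop, REV-ERB proteins (Nr1d1, Nr1d2) repress and ROR proteins activate Arntl. DBP and TEF are bZIP factors that carry the rhythm to other genes through D-box motifs, which NFIL3 also binds, as a repressor. Fat cells have such a clock, and many genes of lipid storage and release cycle with it in adipose tissue.

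Promoter windows from RefSeq (GRCm38.p6), each running from 250 bases before to 50 after an annotated start, were held for 8 of the 10 genes, in 13 windows. Their E-boxes (CACGTG), E-prime boxes (CACGTT) and D-boxes (TTATGTAA or TTACGTAA) were searched on both strands. The E-box is its own reverse complement, and the E-prime box shares only CACGT with it. The windows that hold a match are shown because these motifs are where CLOCK, BMAL1, BHLHE40, DBP and TEF of the set bind. Capitals mark the motifs, and each sequence runs 5′ to 3′ on the gene's strand, so a motif on the opposite strand appears as its reverse complement.
Per3, chr4:151044616-151044915, minus strand: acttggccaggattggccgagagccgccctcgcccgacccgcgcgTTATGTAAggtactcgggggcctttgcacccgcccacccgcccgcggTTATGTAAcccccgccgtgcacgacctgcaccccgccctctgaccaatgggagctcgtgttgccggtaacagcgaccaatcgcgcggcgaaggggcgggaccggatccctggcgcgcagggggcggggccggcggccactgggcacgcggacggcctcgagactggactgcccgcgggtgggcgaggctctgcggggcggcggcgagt
Tef, chr15:81802423-81802722, plus strand: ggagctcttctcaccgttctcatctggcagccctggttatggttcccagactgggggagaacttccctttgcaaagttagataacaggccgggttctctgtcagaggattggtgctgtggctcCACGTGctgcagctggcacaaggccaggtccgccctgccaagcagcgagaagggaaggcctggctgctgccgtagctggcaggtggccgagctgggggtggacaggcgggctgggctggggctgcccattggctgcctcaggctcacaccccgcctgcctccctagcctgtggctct
Tef, chr15:81811164-81811463, plus strand: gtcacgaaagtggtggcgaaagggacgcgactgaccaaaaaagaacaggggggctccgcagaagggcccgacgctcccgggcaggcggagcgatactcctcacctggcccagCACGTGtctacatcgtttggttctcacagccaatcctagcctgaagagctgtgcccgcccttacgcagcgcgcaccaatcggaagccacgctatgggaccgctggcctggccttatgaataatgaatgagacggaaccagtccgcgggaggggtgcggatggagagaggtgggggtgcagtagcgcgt
Cry2, chr2:92434020-92434319, minus strand: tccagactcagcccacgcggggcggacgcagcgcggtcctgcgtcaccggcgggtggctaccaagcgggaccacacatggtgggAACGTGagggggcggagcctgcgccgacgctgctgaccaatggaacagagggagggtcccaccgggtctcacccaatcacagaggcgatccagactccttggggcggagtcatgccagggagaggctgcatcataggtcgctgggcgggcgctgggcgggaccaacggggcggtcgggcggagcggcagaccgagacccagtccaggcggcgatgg
Cry1, chr10:85185005-85185304, minus strand: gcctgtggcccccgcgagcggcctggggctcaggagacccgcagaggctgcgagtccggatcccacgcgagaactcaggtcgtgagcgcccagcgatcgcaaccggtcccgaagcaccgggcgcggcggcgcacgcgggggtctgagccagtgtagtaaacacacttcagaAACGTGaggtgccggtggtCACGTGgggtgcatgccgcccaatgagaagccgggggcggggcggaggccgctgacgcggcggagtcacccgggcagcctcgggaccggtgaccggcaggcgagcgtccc
Per1, chr11:69098699-69098998, plus strand: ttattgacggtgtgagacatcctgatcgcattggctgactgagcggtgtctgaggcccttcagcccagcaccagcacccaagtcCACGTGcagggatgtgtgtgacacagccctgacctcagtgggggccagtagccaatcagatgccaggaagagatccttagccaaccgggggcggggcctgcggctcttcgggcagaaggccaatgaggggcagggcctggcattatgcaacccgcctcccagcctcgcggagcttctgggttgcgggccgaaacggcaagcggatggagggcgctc

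The Per3 window carried the D-box TTATGTAA at 2 places, 205 and 158 bases before the start. This motif was found in 0.938% of all 32851 windows, and at 2 or more places in 7 of them. An E-box stood 127 and 138 bases before the start in the Tef windows, 60 bases before it in Cry1 and 166 bases before it in Per1, against 7.15% of all windows. An E-prime box lay 166 bases before the start of Cry2 and 79 before that of Cry1, against 4.68% of all windows. The windows of Dbp, Arntl and Clock held none of these motifs, nor did the other window of Per1. AGGTCA, the core to which REV-ERB and ROR proteins bind, was found in a window each of Arntl, Clock and Per1 and in 16.3% of all windows. The cAMP response element TGACGTCA (1.79% of all windows) was found in none of the 13. A match is a run of letters, not evidence of binding. Bases outside the windows were not searched, so a window without a match does not mean a gene without the motif.

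Each level below is log2 of the processed intensity minus the array's 75th percentile, so 0 is the array's 75th percentile and a step of 1 is 2-fold. All 10 genes were marked well above background on all 3 arrays. The technical SD beside a difference was taken from replicated probes, which have 10 spots per array, and covers spot-to-spot spread, not that between cultures. Levels of different probes are not compared, except in the summed levels of gene lists, where bright probes weigh most. Spots well above background made up 55.9%, 56.9% and 55.3% of non-control spots on days 2, 8 and 20, with 0 saturated. The 75th percentile of intensity was 662, 636 and 927. Of 8 adipocyte markers (among them Adipoq, Fabp4 and Plin1) all were well above background on each day. Among the macrophage and endothelial markers, Adgre1, Ptprc, Cdh5 and Tek were not well above background on any day. By their brightest probes Csf1r, Itgam and Pecam1 were on all 3 days, while dimmer probes of Csf1r and Itgam fell short on some days.

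Clock genes of every role were among those past 2-fold on day 8 relative to day 2. The output genes Dbp and Tef and the repressor genes Bhlhe40, Per3 and Cry2 were higher on day 8 by 2-fold or more, the activator gene Clock was 2.62-fold lower, and Arntl, Per1, Per2 and Cry1 lay under 2-fold. That is 5 of 10 higher and 1 lower, where 13.8% of 12044 measured genes were 2-fold higher, 12.9% were 2-fold lower and 26.8% passed in either direction. The median difference of the 10 was 0.68, against -0.06 for all measured genes. Between days 20 and 8, 0 of the 10 passed 2-fold, against 5.32% of 12321 genes (3.58% higher, 1.74% lower). Their median was then 0.08, against -0.05 for all genes. In these bulk samples a different mix of cells and a different amount of RNA per cell cannot be told apart.

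**Figure D1:**
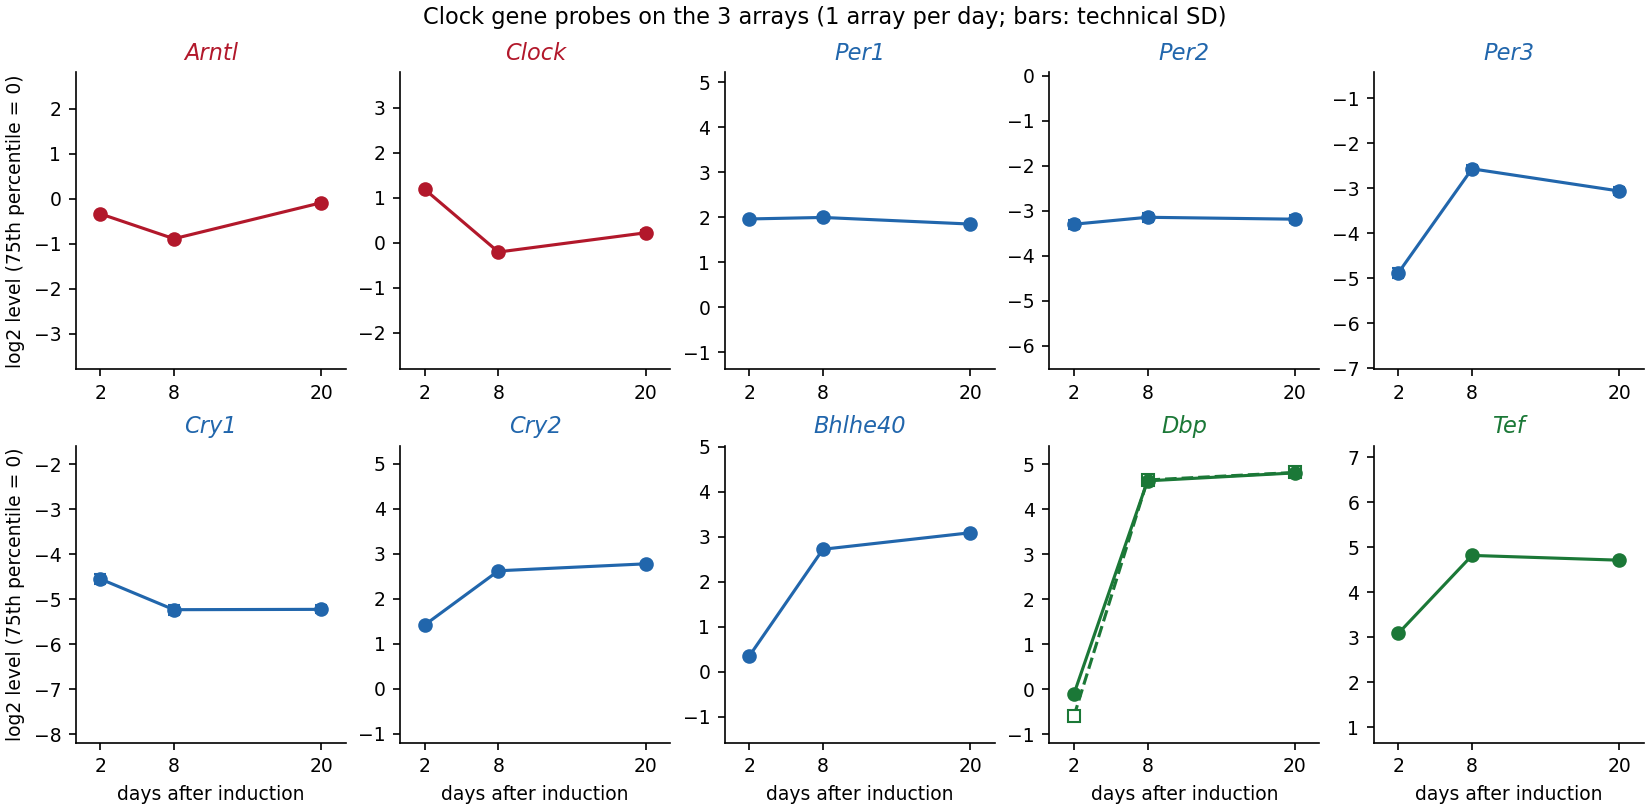
Level of each clock gene probe (log2, the array's 75th percentile set to 0) against days after induction, 1 array per day, with the technical SD as bars, most of them smaller than the points. Every panel spans the same number of log2 units; activators are red, repressors blue and output genes green, and the dashed line with open squares is the other Dbp probe. Dbp, Bhlhe40, Per3, Tef and Cry2 lie higher on day 8 than on day 2, Clock lies lower, and Per1 and Per2 each span 0.15 log2 units over the 3 days.

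Dbp encodes the D-box activator whose transcript is among the most strongly cycling in mammalian tissues. Its probe with the higher mean read -0.11, 4.63 and 4.80 on days 2, 8 and 20, and the other probe -0.60, 4.65 and 4.81. The processed intensity of the first was 614, 15727 and 25907 units. Dbp was low on day 2 and high on both later days. The difference from day 2 was 4.74 on day 8 (26.7-fold, technical SD 0.067), which ranked 77th from the top among 12044 genes, and 4.91 on day 20 (30.1-fold, SD 0.070), ranked 93rd of 11888. The other probe gave 5.25 and 5.42, so the size of the step, not its direction, depended on the probe. On day 20 relative to day 8 the difference was 0.18 (SD 0.068).

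Tef, encoding a bZIP factor related to DBP, was at 3.09, 4.82 and 4.72 on days 2, 8 and 20. It followed Dbp in direction with a smaller step, 1.73 on day 8 relative to day 2 (3.32-fold, SD 0.064) and 1.62 on day 20 relative to day 2 (3.08-fold, SD 0.067). The day 20 value lay 0.11 below that of day 8 (difference -0.11, SD 0.068), a sign that turned with quantile normalization (0.11), cyclic loess (0.15), spike-in scaling (0.55) and median scaling (0.09).

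Among the repressors, Bhlhe40 had the widest range. It read 0.35, 2.72 and 3.09 on days 2, 8 and 20, low on day 2 and high on both later days. Relative to day 2, it was higher by 2.37 on day 8 (5.17-fold, SD 0.069) and by 2.74 on day 20 (6.66-fold, SD 0.070). On day 20 relative to day 8 the difference was 0.37 (SD 0.071). Bhlhe40 is also known as a target of the hypoxia-inducible factors, and other targets of theirs were higher over the same interval. Of 8 measured hypoxia targets 7 were higher on day 8 than on day 2 by 2-fold or more (median 2.74), against 13.8% of all genes. Among them were Ankrd37 (4.50), Ndrg1 (4.43), Pdk1 (3.68) and Egln3 (3.58), while Vegfa was at 0.56. The summed level of the 9 on the array was 136, 443 and 347 times the 75th percentile on days 2, 8 and 20. Before scaling, their summed intensity was 90244, 281583 and 321913 units, so the order of days 8 and 20 depended on the scaling. Most of that sum came from Bnip3, at 6.81, 8.50 and 8.04. On day 20 relative to day 8 the median of the 9 was 0.24, against -0.05 for all genes. The part of the hypoxia targets in the Bhlhe40 difference was not tested.

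The Per genes, whose proteins form the repressor complex with CRY, differed in their profiles. Per3 was at -4.88, -2.57 and -3.06, lowest on day 2 and highest on day 8, with differences of 2.31 on day 8 (4.95-fold, SD 0.136) and 1.81 on day 20 (3.52-fold, SD 0.136), both relative to day 2. Its signal on day 2, 22.5 intensity units, was only 0.82 log2 units above the dimmest signal well above background, and the scanner software's own error there was 20.5% of the signal. With normexp background correction, which compresses dim signals, the Per3 difference shrank to 0.86 on day 8 and 0.37 on day 20, both under 2-fold. On day 20 relative to day 8, Per3 differed by -0.49 (SD 0.118), and by 0.17 with spike-in scaling.

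Per1, which responds to glucocorticoids and cAMP besides the clock, was at 1.96, 1.99 and 1.84. All its differences lay between -0.15 and 0.03, and their signs turned under some scalings: the day 8 minus day 2 value was -0.07 with median scaling and the day 20 minus day 2 value 0.57 with spike-in scaling. Per2 was at -3.30, -3.14 and -3.19, with differences of 0.15 (SD 0.141) on day 8 relative to day 2 and -0.04 (SD 0.132) on day 20 relative to day 8. For Per2 the second of these turned to 0.62 with spike-in scaling. By distance between profiles centred on their own mean, Per1 and Per2 were the nearest pair in the set, 0.16 log2 units apart. Per3 stood 1.73 from Per1 and 1.61 from Per2. This distance takes in the size of change, so genes that change little lie near each other whatever their shape. On day 20 relative to day 2, Per1 and Per2 differed in sign, at -0.11 and 0.11.

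Glucocorticoid and cAMP targets were read beside Per1, since hormonal induction of these cells commonly uses agents that raise both. Of 12 glucocorticoid targets 4 were at least 2-fold lower on day 8 than on day 2 and 2 were higher (median -0.33). Of all measured genes, 12.9% were 2-fold lower and 13.8% higher. Fkbp5, a feedback regulator of the glucocorticoid receptor, was at -3.54, Sgk1, a kinase, at -2.33 and Tsc22d3, which encodes GILZ, at -1.68, while Sult1a1, a sulfotransferase, was at 6.53. Of 11 cAMP and immediate early genes 3 were lower and 0 higher (median -0.34), with Pde4b, a cAMP phosphodiesterase, at -2.92. That count is near the 26.8% of all genes that passed 2-fold in either direction. The Per1 difference over the same interval was 0.03, and the part of glucocorticoid or cAMP signals in it was not tested.

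The cryptochromes differed in direction on day 8 relative to day 2. Cry2 was at 1.42, 2.62 and 2.77, low on day 2, with differences of 1.20 on day 8 (2.30-fold, SD 0.069) and 1.36 on day 20 (2.56-fold, SD 0.069) relative to day 2. Cry1 was at -4.55, -5.24 and -5.23, a difference of -0.68 on day 8 relative to day 2 (SD 0.155) and 0.01 on day 20 relative to day 8 (SD 0.142). The Cry1 probe was dim, on day 8 at 16.9 intensity units and 0.52 log2 units above the dimmest signal well above background, with a scanner error of 17.4%. Its day 8 difference was -0.12 with normexp, and its day 20 minus day 2 difference, -0.68, came to 0.01 with spike-in scaling. For Per3 on day 2 and Cry1 on all days the technical SD was held at the value of brighter replicated probes and may be too small. The same holds below for Rora on day 2, Bhlhe41 on days 8 and 20, and other genes as dim.

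The activator genes were lowest on day 8. Clock, which encodes the partner of BMAL1, was at 1.18, -0.21 and 0.22, with differences of -1.39 on day 8 relative to day 2 (SD 0.075), 0.43 on day 20 relative to day 8 (SD 0.079) and -0.96 on day 20 relative to day 2 (1.95-fold lower, SD 0.072), the last being -0.28 with spike-in scaling. Arntl was at -0.34, -0.89 and -0.09, with differences of -0.55 (SD 0.076), 0.80 (SD 0.081) and 0.25 (SD 0.076) in the same order. Among the 10 genes, Arntl had the largest difference between days 20 and 8, ranked 646th from the top of 12321 genes. Spike-in scaling put the day 20 minus day 8 differences of Arntl, Clock and Bhlhe40 past 2-fold, at 1.46, 1.09 and 1.03. With it the all-gene median in this comparison was 0.61, against -0.05 with percentile scaling.

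**Figure D2:**
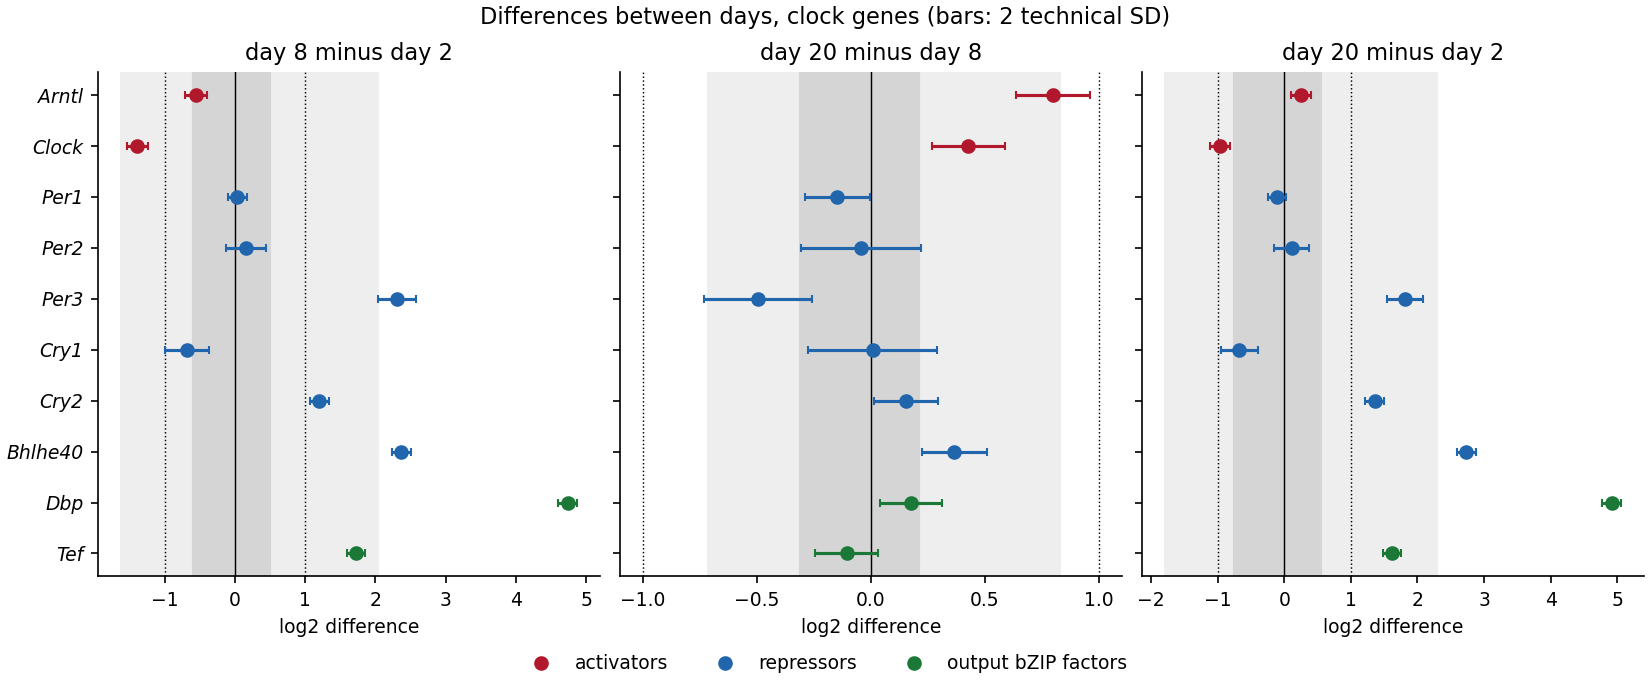
Log2 difference of each clock gene (brightest probe) in the 3 comparisons, with bars of 2 technical SDs; activators are red, repressors blue, output genes green. Dark and light grey bands hold the middle 50% and 90% of all measured genes, and dotted lines mark 2-fold. Dbp, Bhlhe40 and Per3 lie to the right of the light band on day 8 relative to day 2, and no gene passes 2-fold on day 20 relative to day 8.

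Over the whole course, 5 of the 10 genes were higher on day 20 than on day 2 by 2-fold or more (Dbp, Bhlhe40, Per3, Tef and Cry2) and 0 were 2-fold lower, against 15.5% and 17% of 11888 genes (32.4% in either direction). The median of the 10 was 0.80, against -0.14 for all genes. Against their technical SDs, 5 genes were higher and 3 lower by more than 2 SDs on day 8 relative to day 2. The counts were 5 and 2 on day 20 relative to day 8, and 6 and 2 on day 20 relative to day 2. The scanner software's own error gave larger SDs. On day 20 relative to day 8 these were 0.204 for Bhlhe40, Dbp, Cry2 and Per1. Their differences, 0.37, 0.18, 0.15 and -0.15, did not reach 2 such SDs. Those of Arntl (0.80), Clock (0.43) and Per3 (-0.49) did. The Arntl difference on day 20 relative to day 2, 0.25, also fell short. How many of all genes passed the mark of 2 technical SDs was not counted. The median absolute difference of all genes was 0.56, 0.26 and 0.67 in these comparisons. The technical SDs of the 10 genes were at most 0.155, 0.142 and 0.137. The counts are therefore not read as particular to the clock genes. Technical SDs say nothing of the difference between cultures.

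The other genes of the clock loops were 21 genes with 34 probes, of which 15 were well above background on all 3 arrays. Between days 8 and 2, 3 of 15 measured genes were higher on day 8 by 2-fold or more and 1 was lower, a share near the 26.8% of all genes that passed in either direction, with a median of 0.24 against -0.06 for all genes. Between days 20 and 8, 0 of 17 passed 2-fold, against 5.32%. Between days 20 and 2, 4 of 15 were higher on day 20 and 1 was lower, again near the 32.4% of all genes, with a median of 0.36 against -0.14.

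In the second loop, Nr1d2, encoding REV-ERBβ, was at -1.60, -0.21 and -0.43 on days 2, 8 and 20, higher by 1.39 on day 8 than on day 2 (2.62-fold, SD 0.079). Nr1d1, encoding REV-ERBα, was at -2.23, -1.51 and -0.83, with differences of 0.72 on day 8 relative to day 2 (SD 0.090) and 0.68 on day 20 relative to day 8 (SD 0.085), the second being 1.34 with spike-in scaling. Its day 20 minus day 2 difference was 1.40 (2.64-fold), or 0.98 with normexp. Rora was at -3.78, -3.26 and -2.80, a day 20 minus day 2 difference of 0.98 (SD 0.134), which came to 1.01 to 1.67 under 5 other scalings but to 0.38 with normexp. Rorb was well above background only on day 20.

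Repressors outside the set included Ciart, an inhibitor of CLOCK and BMAL1, which did not reach the background mark on day 2. Relative to that day it was higher on day 8 by at least 4.59-fold, and for day 20 the bound was 5.33-fold. Bhlhe41, the close relative of Bhlhe40, was likewise too dim on day 2. The bound for day 8 was at least 1.87-fold higher, and for day 20 at least 3.57-fold higher, where its other probe gave bounds of 2.00-fold and 2.76-fold. Its difference on day 20 relative to day 8 was 0.94 (SD 0.142), which came to 1.00 to 1.60 under the 5 other scalings but to 0.01 with normexp and 0.70 with the mean of its probes, and its other probe gave 0.47. Timeless, which in mammals also serves DNA replication, was the gene lower by 2-fold, at 1.44, -0.63 and -1.19, with a difference of -2.07 on day 8 relative to day 2 (SD 0.074) and -1.85 by its other probe. Beside it, 4 of 4 markers of cycling cells were 2-fold or more lower on day 8 than on day 2, against 12.9% of all genes. Their summed level was 73.5, 1.80 and 3.38 times the 75th percentile on days 2, 8 and 20. Most of that sum came from Rrm2, at 5.70, 0.04 and 0.97. The part of these markers in the Timeless difference was not tested.

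Nfil3, which represses at D-boxes, was at 2.67, 2.04 and 2.11, a difference of -0.62 on day 8 relative to day 2 (SD 0.068), opposite in sign to the D-box activators Dbp and Tef. Hlf, the remaining bZIP activator of this family, and Npas2, which can stand in for CLOCK, were not well above background on any array. Arntl2, a relative of Arntl, was dim, with a difference of 0.01 on day 8 relative to day 2. The kinase gene Csnk1e, whose product phosphorylates PER proteins, was higher on day 8 by 1.04 (2.06-fold, SD 0.071), 0.99 by its other probe, but 0.94 with median scaling and 0.96 with normexp. Csnk1d, its near relative, was at 0.17, with its other probe at -0.23. Among the genes for ubiquitin ligase parts, Btrc and Fbxw11, which target PER, were at -0.61 and -0.50. Csnk1d, Btrc, Fbxw11, Gsk3b and Usp2 lay under 2-fold in the 3 comparisons, although Btrc, at -0.91 on day 20 relative to day 2, was at -1.10 by its other probe and past 2-fold with the mean of both but at -0.22 with spike-in scaling, and Gsk3b and Usp2 came to 1.23 and 1.04 with spike-in scaling. Cipc, a repressor of CLOCK, came to 1.03 in that comparison with the same scaling, against 0.34 with percentile scaling. Fbxl21 was well above background only on day 20.

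**Figure D3:**
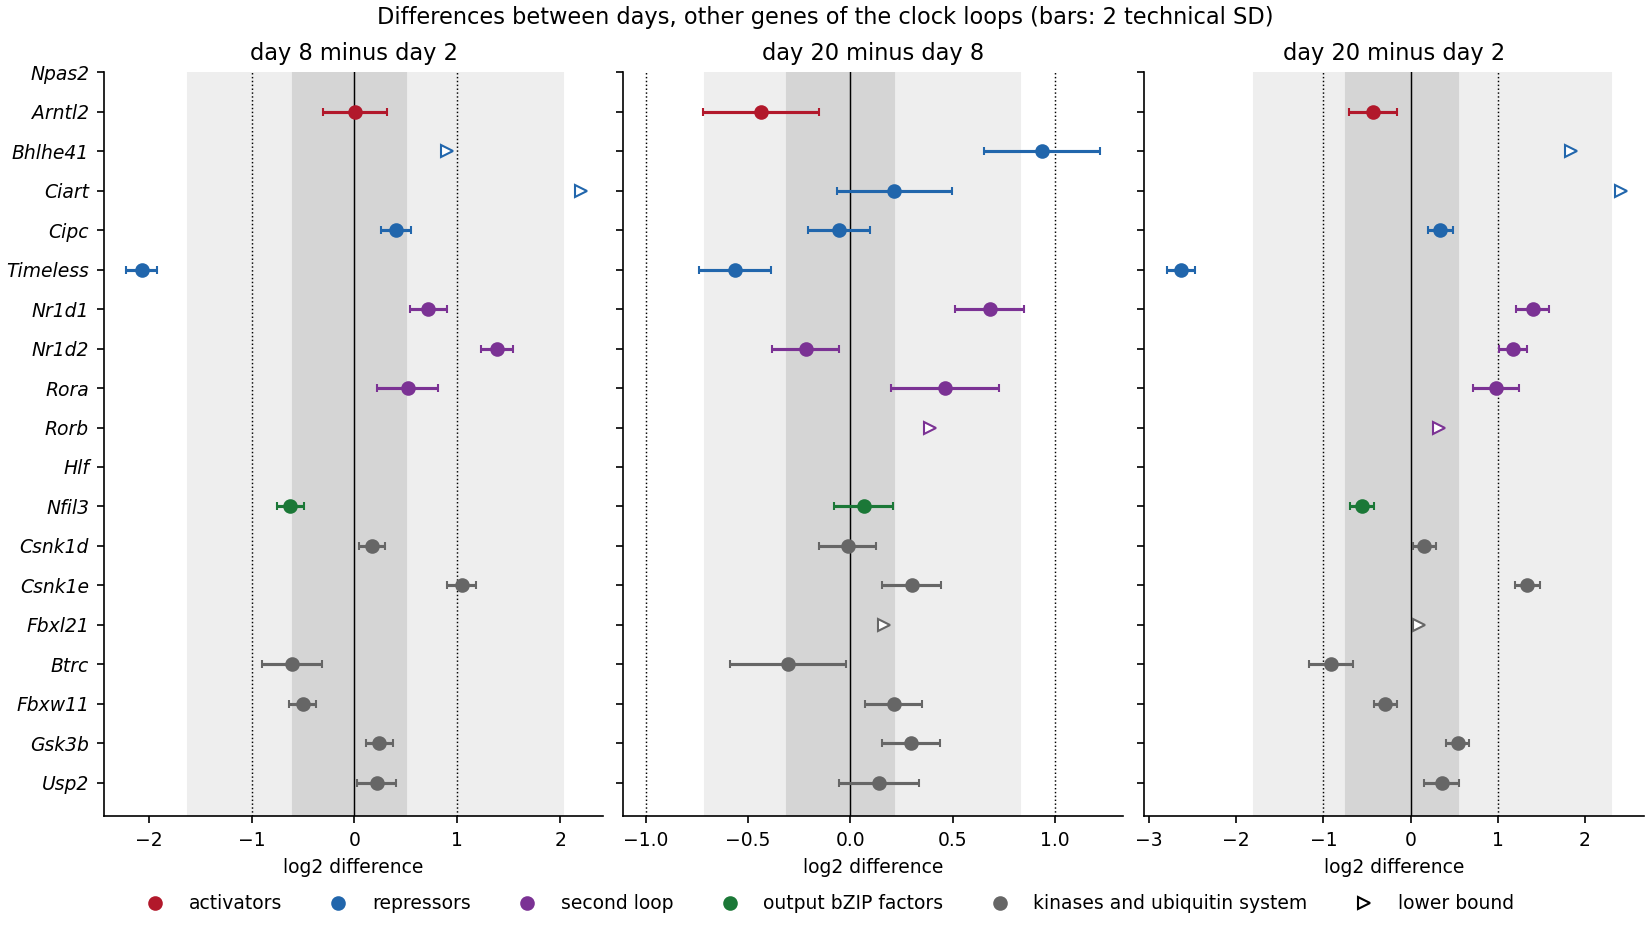
Log2 difference of other clock loop genes (brightest probe) in the 3 comparisons, with bars of 2 technical SDs and grey bands and dotted lines as for the clock genes; triangles are lower bounds where only the later day was well above background, and a row without a symbol was below background on both days. Among the genes drawn, Timeless lies farthest left on day 8 relative to day 2.

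Of 5 genes often described as clock outputs, 0 were 2-fold higher on day 8 than on day 2 and 1 was lower (median -0.11), against 13.8% and 12.9% of all genes, shares at which so few genes show nothing particular. Noct, a circadian gene for an enzyme that acts on nicotinamide dinucleotide phosphates, was the lower one, at 3.98, 2.51 and 2.08 on days 2, 8 and 20, a difference of -1.47 on day 8. Wee1, a cell cycle kinase with E-boxes in its promoter, was at -0.11 and Nampt, the NAD salvage enzyme, at 0.29. Por, the cytochrome P450 reductase, was at 0.05 and Cdkn1a, the cell cycle inhibitor p21, at -0.78.

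The genes whose 3-day profile lay nearest to those of the 4 widest-ranging members were found among 11810 genes well above background on all 3 arrays, by Euclidean distance between log2 profiles centred on their own mean. With 3 points many genes share a shape, so the names describe these arrays only. Nearest to Dbp were Ak4, an adenylate kinase, at a distance of 0.09, Slc22a4, an organic cation transporter, at 0.09, and Art3, of the ADP-ribosyltransferase family, at 0.12. Nearest to Bhlhe40 were Rbm38, an RNA-binding protein, Irs1, the adaptor of the insulin receptor, and Dysf, the membrane repair protein dysferlin, at 0.04, 0.04 and 0.05. Nearest to Per3 were Tmco6, Acbd4 and Isoc2b, at 0.02, 0.03 and 0.04, and to Tef the kinase gene Map3k8, Pnrc1 and the aldehyde dehydrogenase gene Aldh3b1, each at 0.03. Within the set, Cry2 and Tef were 0.37 apart and Per3 and Tef 0.42, while Clock and Dbp were farthest apart, at 4.90.

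Of 8 adipocyte markers, 4 were higher on day 8 than on day 2 by 2-fold or more and 0 lower, with a median of 1.26. Of all measured genes, 13.8% were higher and 12.9% lower. Fabp4 was at -0.05 and Cebpa at -0.40. The summed level of the 8 markers was 625, 1615 and 1115 times the 75th percentile on days 2, 8 and 20. Before scaling, their summed intensity was 414017, 1.027e+06 and 1.033e+06 units, so the order of days 8 and 20 depended on the scaling. Of 9 housekeeping genes on the array, 1 was higher and 2 were lower, with a median of -0.04. That count is near the 26.8% of all genes that passed in either direction. The 7 preadipocyte and fibroblast markers summed to 102, 111 and 194 times the 75th percentile on days 2, 8 and 20. The part of these in the clock gene differences was not tested.

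**Figure D4:**
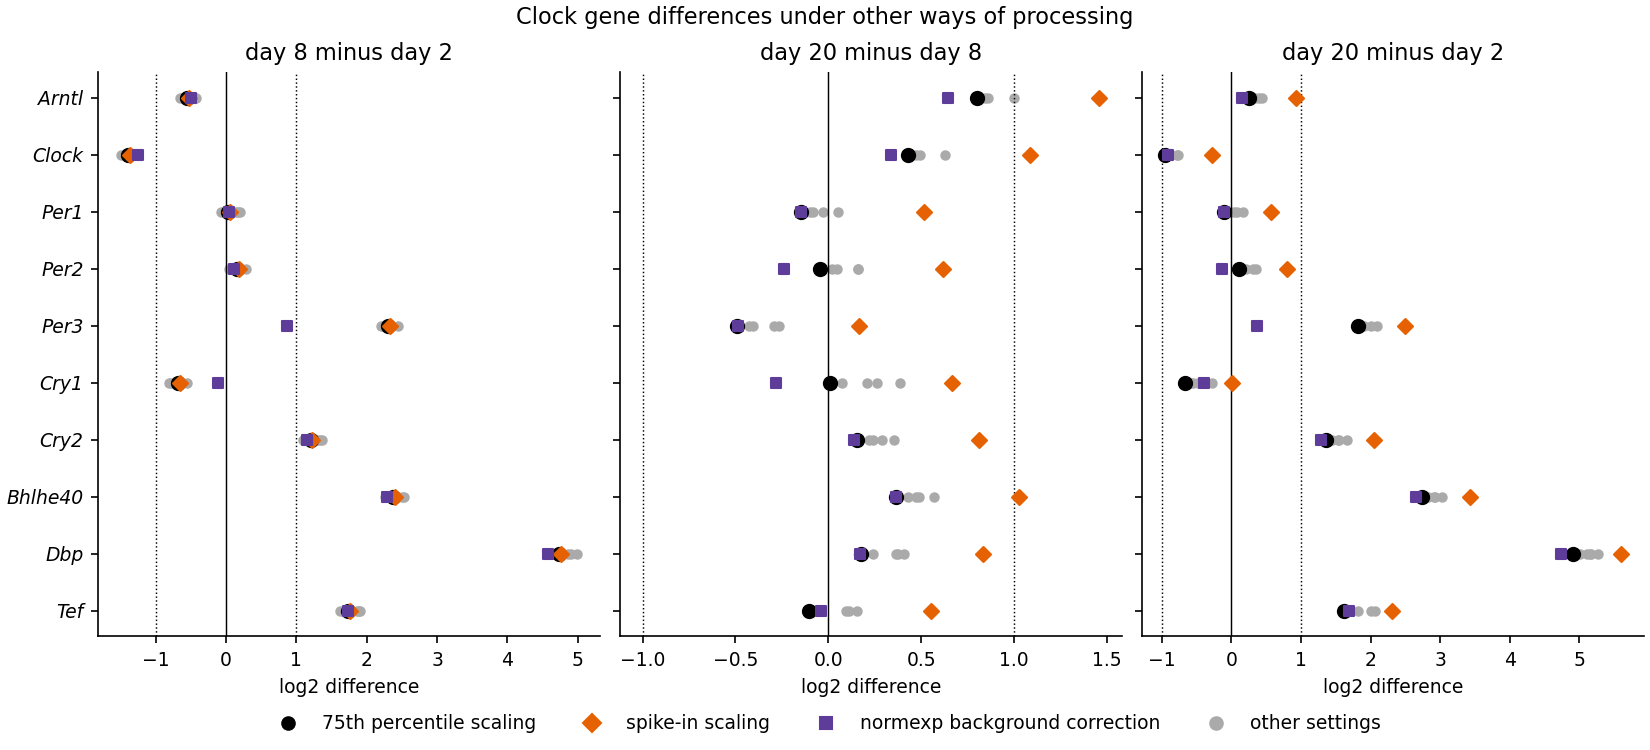
Log2 difference of each clock gene in the 3 comparisons under 75th percentile scaling (black circles), spike-in scaling (orange diamonds), normexp background correction (purple squares) and the other settings (grey). Per3 moves most with normexp on day 8 relative to day 2, and spike-in scaling shifts all genes to the right in both comparisons with day 20.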

How the data were processed

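Total RNA of 3T3-L1 cells at 2, 8 and 20 days was hybridised to 1-colour Agilent arrays, 1 per day. Per the file headers, the deposited intensity values were read and background-corrected by the scanner software, and per the submitters' processing notes this was Agilent Feature Extraction 10.7.1.1. Marks of detection, outliers and controls are other deposited columns, per the file headers. The authors' deposited log2 table equals log2 of the processed intensity minus 1 constant per array, within 0.01 for 100% of probes. Its column medians are -4.80, -4.69 and -4.89, and scale and centring are thereby known.

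Spots of a probe were averaged on the log2 scale, controls and outliers left out, and each array's 75th percentile over 39427 probes subtracted. Accessions were matched to RefSeq gene names of GRCm38.p6. The headers name an older build for the design, so no probe coordinates are given. A gene took its brightest probe. A difference needed the probe well above background on both arrays. Where only 1 was, the fold is a bound, taken against the dim value or the lowest signal well above background, whichever is higher. No test was possible. The technical SD comes from 185, 205 and 210 probes with 10 spots each. The fixed plan named a mean-signal column for normexp, and the median-signal column was used. The code was tested on simulated data.

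The genes, lists and naming rule were chosen with earlier results of these data known. Named were all 10 genes, other clock genes past 2-fold in any comparison with 5 fixed ones, 5 clock outputs, 3 nearest genes for each of the 4 widest-ranging members, and up to 4 genes of lists set beside them. Genes named outside this rule (Arntl2, Csnk1d, Fbxl21, Btrc, Fbxw11, Gsk3b, Usp2, Cipc, Rorb, Hlf, Vegfa and Bnip3) were chosen after their values were seen. Some other clock loop genes, which the counts include, are not reported here by name. Python 3.11.15, R 4.3.3 and limma 3.58.1 were used.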

Additional observations from a re-analysis of the deposited data

How the results depend on the processing

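Over 10 alternative settings, no difference of 2-fold or more among the clock genes or the other clock loop genes changed sign. On day 8 relative to day 2, the count of clock genes past 2-fold stayed within 1.5 times of 6 under each setting. The signal floor limits Per3 and Cry1, and the filter at the lower quartile of signal left 7 of the 10 genes. The median of the clock genes on day 8 relative to day 2 (0.68) was 0.78 with cyclic loess, 0.57 with median scaling, 0.81 with the percentile over probes detected on all arrays, 0.48 with normexp and 1.20 above the lower quartile of signal. On day 20 relative to day 8 (0.08) it was 0.25 with quantile normalization, 0.33 with cyclic loess, 0.74 with spike-in scaling, 0.28 with median scaling and 0.18 above the lower quartile. On day 20 relative to day 2 (0.80) the same settings gave 0.88, 1.03, 1.49, 0.90 and 1.36, with 1.00 for the percentile over detected probes and 0.26 for normexp. The clock genes past 2-fold between days 20 and 8 numbered 3 with spike-in scaling, against 0. Among the other clock loop genes that count, 0, was 3 with spike-in scaling, 2 with no filter on dim probes, and 1 with quantile normalization, cyclic loess, median scaling and the percentile over detected probes. Their count on day 20 relative to day 2, 5, was 10 with spike-in scaling and 9 with no filter, and on day 8 relative to day 2, 4, was 7 with no filter. Among all genes past 2-fold between days 20 and 8, 67.3% were higher on day 20, against 34.5% with no filter on dim probes, 83.0% with cyclic loess, 83.9% with median scaling and 99% with spike-in scaling. Between days 20 and 2 the share, 47.7%, was 65.0% with cyclic loess, 59.8% with the percentile over detected probes and 84.3% with spike-in scaling. The cause of these moves was not tested. The authors' table and the main scaling are the same up to rounding, so their values coincide. No paired analysis was possible because each day had 1 array.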
